A study of Mus musculus with 6 samples.

Results

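The genes that copy, transcribe and maintain mitochondrial DNA (mtDNA), together with the regulators of mitochondrial biogenesis, were read out in mouse chondrocytes that received mitochondria. The set holds 37 genes, chosen by name for their role: 7 of mtDNA transcription, 5 of replication, 3 of nucleotide supply, 3 of RNA end processing, 8 of RNA stability and maturation, 2 of RNA degradation and 9 regulators of biogenesis. All 37 were found among the 28812 genes of the deposited table, and all 37 passed the filter on low counts that left 17290 genes for testing. None was chosen by its measured values, although the set was drawn up with earlier results of these data known.

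Mitochondria carry a small circular genome whose protein genes all encode subunits of the respiratory chain and ATP synthase. Every protein that copies and reads this genome is made from nuclear genes: the polymerase POLRMT, with TFAM and TFB2M at the promoters, transcribes both strands into long precursors, and the tRNAs within them are then cut out by mitochondrial RNase P and ELAC2. The coactivators of the PGC-1 family raise the transcription of these nuclear genes through factors such as NRF1, GABP and ERRα, and SIRT1 is known to deacetylate PGC-1α. Chondrocytes live in poorly oxygenated cartilage and draw much of their ATP from glycolysis, and loss of mitochondrial function has been described in osteoarthritic (OA) cartilage.

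Poly(A) RNA was sequenced as paired-end libraries from wild-type mouse chondrocytes whose labels give the disease state as OA. The first group received interleukin-1β (IL-1β), an inflammatory cytokine, and mitochondria (3 libraries). The second received IL-1β and vehicle (3 libraries), so every library was exposed to the cytokine and none shows the cells before it. According to the title of the series the transferred mitochondria were those of osteocytes, and the comparison asks what that transfer did to gene expression. Strain, age, dose, exposure time and the amount of mitochondria are not given in the labels, nor is whether the 3 replicates were separate animals or cultures. P-values therefore measure the spread between these libraries, which may be technical.

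Libraries held 63547854 to 66293786 deposited counts, or 15886964 to 16573446 fragments if a fragment is worth 4 counts. Mitochondria replicate 1 stood apart: it scored -81.44 on the first principal component of all genes (43% of the variance), against -27.36 and -34.7 for the other mitochondria libraries and 30.39 to 56.75 for the vehicle libraries. All 10 chondrocyte markers were detected, of which 2 rose and 2 fell in edgeR, and their summed level was 258 to 276 FPKM (fragments relative to transcript length and depth) in the mitochondria libraries and 314 to 361 in the vehicle libraries. Among 6 osteocyte markers, the defining genes Dmp1, Sost and Phex averaged under 0.1 FPKM and had too few counts for the test. None of the 3 tested markers was called. Fgf23 was at 0.143, 0.25 and 0.523 FPKM with mitochondria and 0.128, 0.056 and 0.179 FPKM with vehicle. Its log2 difference was 1.34 ± 0.73 (edgeR adjusted p = 0.25), and that of Fbln7 was -0.55 ± 0.31 (adjusted p = 0.27). The sum of the list, 121 to 132 FPKM in the mitochondria libraries and 79.9 to 119 in the vehicle libraries, was nearly all Pdpn, at 129, 131 and 119 FPKM with mitochondria and 118, 80.4 and 78.4 FPKM with vehicle (edgeR adjusted p = 0.064). Pdpn is also on the list of 5 synovial fibroblast markers, of which Thy1, Cdh11 and Prrx1 fell by 0.58, 0.78 and 0.58 on the log2 scale (adjusted p = 0.011, 0.02 and 0.022). All 6 markers of proliferation fell (edgeR, adjusted p under 0.05), and their summed level was 7.27 to 11.4 FPKM with mitochondria and 18.5 to 24.2 with vehicle. The part of these differences in the results on the 37 genes was not tested, and in bulk RNA fewer cells of a type and less RNA per cell cannot be told apart.

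A feature that the choice of genes did not use lies in their promoters. GABPA, the DNA-binding subunit of GABP, is a factor of the ETS family and recognises the ETS motif CCGGAAG. That motif was searched on both strands from 250 bases before to 50 after each start in RefSeq windows (GRCm38.p6). Windows were at hand for 33 of the 37 genes, and 15 of these 33 (45.5%) held the ETS letters. The share was 18.3% of the 11787 tested genes with a window and 9.93% of all 27025 genes with a window. In 14 of the 15 the letters lay before the start. The upstream 100 bases are shown for 8 genes from every role but RNA degradation, whose 2 genes lacked the ETS letters, with the motif in capitals (CTTCCGG where it lies on the other strand). They were taken from chr10:71238045-71238144 (minus strand) for Tfam, chr10:79746582-79746681 (minus) for Polrmt, chr7:79466274-79466373 (minus) for Polg, and chr6:40471368-40471467 (plus) for Ssbp1. The others come from chr8:104248559-104248658 (minus) for Tk2, chr16:56037787-56037886 (minus) for Trmt10c, chr5:24445236-24445335 (minus) for Fastk, and chr16:84835024-84835123 (plus) for Gabpa. Each runs 5′ to 3′ and ends at the base before the start.
Tfam: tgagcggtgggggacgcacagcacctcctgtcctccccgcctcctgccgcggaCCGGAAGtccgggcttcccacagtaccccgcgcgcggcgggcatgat
Polrmt: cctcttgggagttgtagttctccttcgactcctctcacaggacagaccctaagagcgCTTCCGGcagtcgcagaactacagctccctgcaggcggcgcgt
Polg: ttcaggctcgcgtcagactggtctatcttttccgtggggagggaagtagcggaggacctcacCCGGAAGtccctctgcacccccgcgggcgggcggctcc
Ssbp1: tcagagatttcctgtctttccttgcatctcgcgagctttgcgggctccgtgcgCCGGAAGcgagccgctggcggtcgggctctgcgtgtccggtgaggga
Tk2: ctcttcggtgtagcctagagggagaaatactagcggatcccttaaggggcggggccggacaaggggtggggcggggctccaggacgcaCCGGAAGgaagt
Trmt10c: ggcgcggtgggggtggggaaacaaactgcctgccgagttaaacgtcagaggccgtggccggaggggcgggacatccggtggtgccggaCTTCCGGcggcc
Fastk: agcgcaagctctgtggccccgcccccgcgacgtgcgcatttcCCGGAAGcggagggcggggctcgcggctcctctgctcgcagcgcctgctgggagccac
Gabpa: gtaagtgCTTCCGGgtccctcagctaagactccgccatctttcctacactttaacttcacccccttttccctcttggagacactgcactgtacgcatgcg

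The first base of the motif lay 47 bases before the start in Tfam and in Ssbp1, 43 in Polrmt, 38 in Polg, 58 in Fastk and 93 in Gabpa itself, and 12 in both Tk2 and Trmt10c. The other genes with the ETS letters were Tefm, Mterf4, Polg2, Slirp, Fastkd5, Tbrg4 and Sirt3. The NRF1 motif was found in 3 of the 33 genes (Polrmt, Fastkd3 and Gabpb1; 9.1%, against 10.4% of the tested genes). The YY1 letters AAGATGGCG were in 4 genes (12.1%, against 3.2%), the cAMP response element TGACGTCA in 2 (6.1%, against 3.4%) and the ERR motif TCAAGGTCA in 0 (against 0.3%). No window held overlapping ETS and YY1 letters. The 15 genes with the ETS letters had a median log2 fold change of 0.11 and the 18 without of -0.03, beside 0.05 for the 2156 tested genes with them and -0.01 for the 9631 without. A match of letters is a description of the window and not a bound site.

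Most of the 37 genes did not change detectably between the groups. Nrf1 and Fastk rose, Sirt1 fell and 34 genes passed in neither direction (edgeR quasi-likelihood test, adjusted p under 0.05 over all genes tested). That is 8.11% of the set, against 14.8% of all 17290 genes tested (6.36% higher and 8.46% lower). The median log2 fold change, mitochondria over vehicle, was 0.00 in the set and 0.00 over all genes, and the median absolute change was 0.21 against 0.31. Estimates ran from -0.95 to 1.09, with 19 above 0 and 18 below. The 95% interval lay within 0.5 log2 units of no change for 14 genes and within 1 for 32. Of all 17290 genes tested it did so for 4543 and 10030. In CPM (counts relative to depth, after TMM scaling) the groups did not overlap for 14 of the 37 genes (37.8%, against 40.7% of all genes). Of these, 6 were higher with mitochondria and 8 lower (against 19.8% and 20.9% of all genes).

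**Figure D1:**
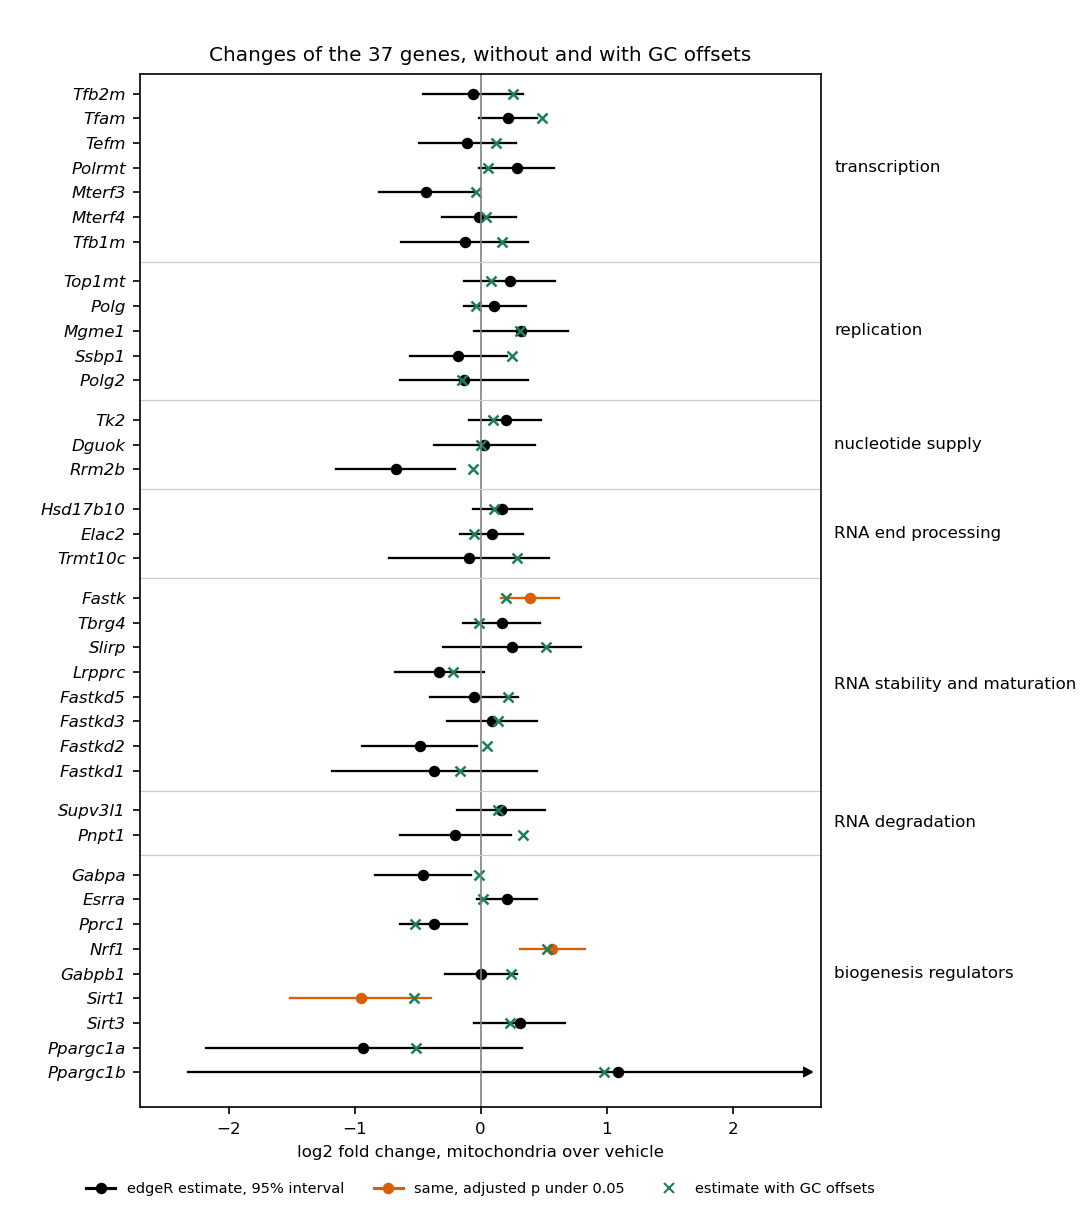
Log2 fold change, mitochondria over vehicle, for the 37 genes by role, as circles with 95% intervals, orange where the adjusted p was under 0.05, and crosses for the estimate of a fit with GC offsets. Nrf1 and Fastk lie right of 0 and Sirt1 left of it, most other intervals cross 0, and the interval of Ppargc1b (-2.32 to 4.51) runs off the axis.

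None of the 7 transcription genes passed the test. Tfam, which packages mtDNA and bends its promoters for initiation, measured 6.34, 6.2 and 6.38 FPKM in mitochondria libraries 1 to 3 and 5.75, 5.4 and 5.89 FPKM in vehicle libraries 1 to 3. Every mitochondria library was above every vehicle library, yet the log2 difference of 0.22 ± 0.10 (SE; 95% interval -0.01 to 0.45, n = 3 each) had an edgeR adjusted p of 0.17. Polrmt, the RNA polymerase of mitochondria, measured 5.02, 3.92 and 4.02 FPKM with mitochondria and 3.58, 3.78 and 3.81 FPKM with vehicle. Its groups did not overlap either, and its log2 difference was 0.29 ± 0.13 (adjusted p = 0.17). Without mitochondria replicate 1 it was 0.16. With GC offsets, which remove from each library its trend with GC content, it was 0.06 (adjusted p = 0.7). Polrmt had the highest GC content of the set, 60.3%.

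Tfb2m, the initiation factor that opens the promoter and the most abundant gene of this role, measured 6.08, 9.89 and 9.25 FPKM in the mitochondria libraries and 9.53, 9.19 and 8.9 FPKM in the vehicle libraries. Mitochondria replicate 1 was low and the other 5 libraries lay together, so that the log2 difference was -0.06 ± 0.18 with that library and 0.12 without it (edgeR adjusted p = 0.85 and 0.44). Its relative Tfb1m, which methylates the small ribosomal RNA of mitochondria, was the least abundant gene of the role, at 0.795, 0.961 and 1.2 FPKM with mitochondria and 1.01, 1.06 and 1.32 FPKM with vehicle. These groups overlapped, with a log2 difference of -0.12 ± 0.22. Tfb2m exceeded Tfb1m by 6.74 to 10.3 times in FPKM in each of the 6 libraries. Tefm, the elongation factor, differed by -0.11 ± 0.17, and Mterf4, a factor of mitochondrial ribosome assembly, by -0.01 ± 0.13 on the log2 scale. Mterf3, a repressor of mitochondrial transcription, was at 2.05, 2.92 and 2.38 FPKM with mitochondria, below all 3 vehicle libraries at 3.14, 3.25 and 4.04 FPKM, with an edgeR adjusted p of 0.12. Its log2 difference was -0.43 ± 0.17, and -0.04 with GC offsets (adjusted p = 0.88), at a GC content of 42.7%.

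**Figure D2:**
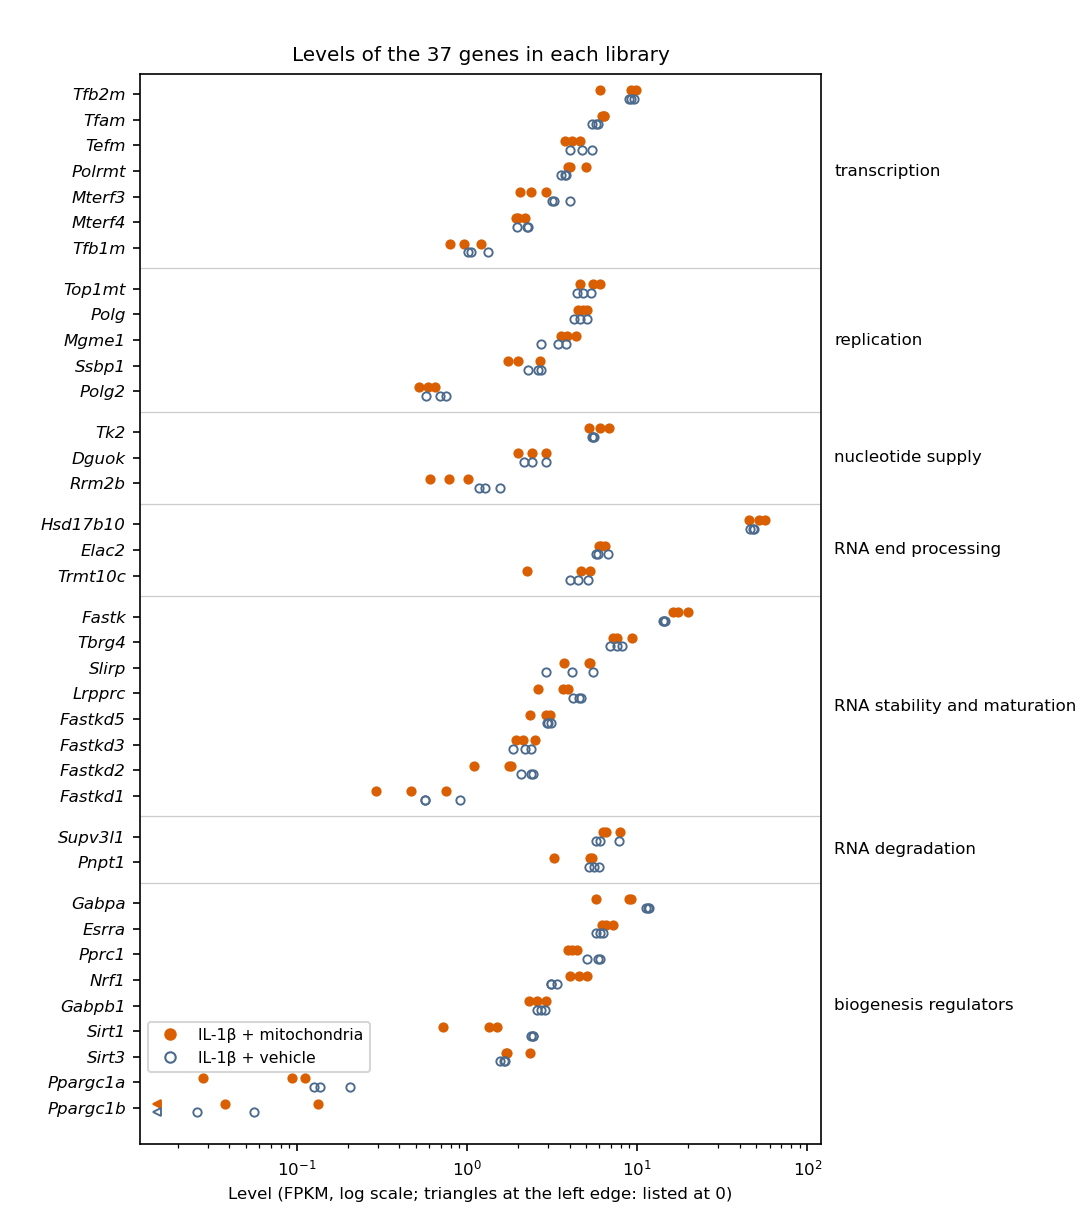
Level of each of the 37 genes in every library (FPKM, log axis), filled circles for IL-1β + mitochondria and open circles for IL-1β + vehicle, with genes grouped by role and ordered by mean level within it. Hsd17b10 stands highest at a mean of 49.4 FPKM, Ppargc1a and Ppargc1b lie far to the left, and triangles mark libraries in which Ppargc1b was listed at 0.

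The 5 replication genes also gave no call, and the groups overlapped for all 5. Polg, the catalytic subunit of the mtDNA polymerase, measured 5.06, 4.47 and 4.82 FPKM with mitochondria and 5.08, 4.59 and 4.24 FPKM with vehicle. The log2 difference was 0.11 ± 0.11, with an interval of -0.13 to 0.36. Its accessory subunit Polg2, the least abundant gene of the role, measured 0.65, 0.519 and 0.588 FPKM with mitochondria and 0.69, 0.749 and 0.571 FPKM with vehicle. Polg exceeded Polg2 by 6.13 to 8.61 times in FPKM across the 6 libraries. Top1mt, the topoisomerase that relieves twist in mtDNA, was the most abundant, at 6.07, 5.52 and 4.61 FPKM with mitochondria and 5.33, 4.4 and 4.78 FPKM with vehicle. Neither passed the test, with log2 differences of -0.13 ± 0.22 for Polg2 and 0.23 ± 0.16 for Top1mt. Ssbp1, which coats single-stranded mtDNA, differed by -0.18 ± 0.17, and Mgme1, an exonuclease that trims replication ends, by 0.32 ± 0.16 (edgeR adjusted p = 0.52 and 0.22).

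Among the genes that supply nucleotides to mtDNA, Tk2, the mitochondrial thymidine kinase, measured 6.79, 5.19 and 6.05 FPKM with mitochondria and 5.49, 5.57 and 5.41 FPKM with vehicle. The groups overlapped (log2 difference 0.20 ± 0.13, edgeR adjusted p = 0.32), as they did for the deoxyguanosine kinase Dguok (0.03 ± 0.18). Rrm2b, the p53-inducible subunit of ribonucleotide reductase, stood at 0.603, 1.01 and 0.781 FPKM in the mitochondria libraries and 1.27, 1.18 and 1.57 FPKM in the vehicle libraries. All 3 mitochondria libraries were below all 3 vehicle libraries, and the log2 difference of -0.67 ± 0.21 missed the threshold (edgeR adjusted p = 0.065). Of the 6 fits without a library it passed in 1, without mitochondria replicate 2, at -0.88 (adjusted p = 0.031). In the others the adjusted p was up to 0.23. With GC offsets the difference was -0.06 (adjusted p = 0.82). Rrm2b had the lowest GC content of the set, 40.5%.

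The 3 genes of RNA end processing held the most abundant member of the whole set. Hsd17b10, a subunit of mitochondrial RNase P that also breaks down isoleucine, measured 56.4, 45.6 and 51.7 FPKM with mitochondria and 48.1, 48.9 and 46.1 FPKM with vehicle. Its partner Trmt10c, which methylates tRNA precursors, measured 2.26, 5.26 and 4.68 FPKM with mitochondria and 5.13, 4.48 and 4.02 FPKM with vehicle. Neither passed the test (log2 differences 0.17 ± 0.10 and -0.09 ± 0.28), and Trmt10c was low in mitochondria replicate 1. Without that library the difference of Trmt10c was 0.20 (edgeR adjusted p = 0.42). Per length, the message of Hsd17b10 exceeded that of Trmt10c by 8.67 to 11.4 times in 5 libraries and by 25 times in mitochondria replicate 1. It exceeded Prorp, the nuclease subunit, by 13.9 to 22 times. Elac2, the enzyme that cuts behind tRNAs, averaged 6.2 ± 0.258 FPKM with mitochondria and 6.12 ± 0.539 FPKM with vehicle (SD, n = 3 each).

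Of the 8 genes of RNA stability and maturation, Fastk rose. FASTK is the founding member of a family of mitochondrial RNA-binding proteins and is known to be needed for the messenger RNA of complex I subunit ND6. It measured 20, 16.2 and 17.4 FPKM with mitochondria and 14.3, 14.1 and 14.5 FPKM with vehicle, without overlap. The log2 difference was 0.39 ± 0.10 (95% interval 0.16 to 0.62, edgeR adjusted p = 0.036). The call was lost without mitochondria replicate 3 (adjusted p = 0.089) and without vehicle replicate 1, 2 or 3 (0.082, 0.15 and 0.14), while it held without mitochondria replicate 1 (0.025). With offsets for GC content the difference was 0.20 (adjusted p = 0.072), and Fastk has a GC content of 58.5%. Of its exonic bases, 26.1% lie opposite Slc4a2, which was not called (0.11 ± 0.12). The deposited coordinates of Fastk are chr5:24438440-24445238 on GRCm38, with a start or end that differs from the annotation used here for exons.

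Its relatives Fastkd1, Fastkd2, Fastkd3, Fastkd5 and Tbrg4 (FASTKD4), each tied to particular mitochondrial transcripts, gave no call. Fastkd1 was the least abundant, at 0.293, 0.753 and 0.465 FPKM with mitochondria and 0.566, 0.565 and 0.911 FPKM with vehicle, with wide overlap (-0.37 ± 0.36). Fastkd2, needed for the large ribosomal RNA, was at 1.1, 1.81 and 1.77 FPKM with mitochondria, below all vehicle libraries at 2.43, 2.07 and 2.38 FPKM (-0.48 ± 0.20, edgeR adjusted p = 0.14). With GC offsets its difference was 0.05 (adjusted p = 0.84). Tbrg4, Fastkd3 and Fastkd5 overlapped between groups, with log2 differences of 0.17 ± 0.13, 0.09 ± 0.16 and -0.05 ± 0.15. LRPPRC and SLIRP form a complex that protects mitochondrial messenger RNAs. Lrpprc measured 2.61, 3.93 and 3.65 FPKM with mitochondria and 4.52, 4.22 and 4.66 FPKM with vehicle. The groups did not overlap, but the log2 difference of -0.33 ± 0.15 (95% interval -0.68 to 0.03) had an edgeR adjusted p of 0.19. Slirp differed by 0.25 ± 0.24, and 97.8% of its exonic bases lie opposite Snw1 or Alkbh1. The strand setting of the counting is not given in the sources used here, so reads of Slirp and these neighbours cannot be told apart.

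The 2 genes of RNA degradation, which form the mitochondrial degradosome, overlapped between the groups. Supv3l1, the helicase, measured 7.97, 6.57 and 6.3 FPKM with mitochondria and 6.01, 5.76 and 7.8 FPKM with vehicle. Pnpt1, the exoribonuclease, measured 3.22, 5.26 and 5.45 FPKM with mitochondria and 5.24, 5.93 and 5.6 FPKM with vehicle. The low value of Pnpt1 came from mitochondria replicate 1: its log2 difference was -0.20 ± 0.19 with that library and 0.01 without it (edgeR adjusted p = 0.54 and 0.98). With GC offsets it was 0.34 (adjusted p = 0.041).

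The 9 regulators of biogenesis held the other calls. Nrf1 (nuclear respiratory factor 1, not the stress factor Nfe2l1), a transcription factor whose known targets include Tfam and respiratory chain genes, rose. It measured 5.05, 4.04 and 4.53 FPKM with mitochondria and 3.36, 3.13 and 3.12 FPKM with vehicle. Every mitochondria library was above every vehicle library. The log2 difference was 0.57 ± 0.11 (95% interval 0.31 to 0.83, edgeR adjusted p = 0.016), and 0.53 with GC offsets (adjusted p = 0.0065). Leaving out mitochondria replicate 3 (adjusted p = 0.053), vehicle replicate 2 (0.084) or vehicle replicate 3 (0.086) ended the call, with differences of 0.54 to 0.58. Nrf1 lies at chr6:30047988-30153458 on GRCm38.

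Sirt1, a deacetylase that activates PGC-1α, fell. It measured 0.722, 1.35 and 1.49 FPKM with mitochondria and 2.43, 2.38 and 2.43 FPKM with vehicle. The vehicle libraries were tightly grouped and all 3 mitochondria libraries were below them, replicate 1 furthest. The log2 difference was -0.95 ± 0.25 (95% interval -1.51 to -0.39, edgeR adjusted p = 0.036). It was -0.69 without mitochondria replicate 1 (adjusted p = 0.01) and -0.53 with GC offsets (adjusted p = 0.039). The call was lost without mitochondria replicate 3 (adjusted p = 0.05) and without vehicle replicate 1, 2 or 3 (0.08, 0.11 and 0.12). Sirt1 lies at chr10:63319005-63381704 and has a GC content of 42.0%. Sirt3, the deacetylase inside mitochondria, averaged 1.92 ± 0.363 FPKM with mitochondria and 1.62 ± 0.0506 FPKM with vehicle, without overlap (log2 difference 0.31 ± 0.16, adjusted p = 0.22).

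The PGC-1 coactivators differed widely in level. Ppargc1a (PGC-1α) was nearly silent, at 0.0281, 0.0928 and 0.111 FPKM with mitochondria and 0.125, 0.136 and 0.206 FPKM with vehicle. These levels stood for 3.5, 11.0 and 13.0 fragments with mitochondria and 14.8, 16.2 and 24.2 with vehicle, taking 4 counts as a fragment. The groups did not overlap, but the interval of the log2 difference ran from -2.18 to 0.33 (estimate -0.93 ± 0.55, edgeR adjusted p = 0.29). Ppargc1b (PGC-1β), the least abundant gene of the set, was listed at 0, 0.0378 and 0.133 FPKM with mitochondria and at 0.0259, 0.0557 and 0 FPKM with vehicle. At 0, 2.8 and 9.5 fragments with mitochondria and 2, 4 and 0 with vehicle, its log2 estimate of 1.09 (95% interval -2.32 to 4.51) gives no direction. Pprc1 (PRC), the third coactivator, measured 4.15, 3.93 and 4.43 FPKM with mitochondria and 6.06, 5.04 and 5.91 FPKM with vehicle. All 3 mitochondria libraries lay below all 3 vehicle libraries, with a log2 difference of -0.37 ± 0.12 (edgeR adjusted p = 0.062). With GC offsets it was -0.52 (adjusted p = 0.011), and Pprc1 has a GC content of 55.5%. In FPKM the message of Pprc1 exceeded that of Ppargc1a by 28.7 to 148 times in the 6 libraries.

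GABP binds DNA through Gabpa and activates through Gabpb1. Gabpa, the most abundant regulator, measured 5.75, 8.93 and 9.22 FPKM with mitochondria and 11.5, 11.3 and 11.7 FPKM with vehicle. All mitochondria libraries were below the vehicle libraries, replicate 1 by the most. The log2 difference of -0.46 ± 0.17 missed the threshold (edgeR adjusted p = 0.099). It was -0.27 without mitochondria replicate 1 (adjusted p = 0.038) and -0.01 with GC offsets (adjusted p = 0.93), at a GC content of 42.0%. Gabpa passed in 1 of the 6 fits without a library, with an adjusted p of up to 0.24 in the others. Gabpb1 differed by 0.00 ± 0.12, with overlapping groups. Esrra, the nuclear receptor ERRα, measured 7.19, 6.19 and 6.59 FPKM with mitochondria and 6.04, 5.76 and 6.28 FPKM with vehicle, with a log2 difference of 0.21 ± 0.11 (adjusted p = 0.21). With GC offsets Esrra was at 0.02 (adjusted p = 0.9), at a GC content of 58.4%. Its groups overlapped slightly in FPKM, though not in CPM. The ratio of Nrf1 to Gabpa in FPKM was 0.878, 0.452 and 0.491 in the mitochondria libraries and 0.292, 0.278 and 0.266 in the vehicle libraries, a description chosen after the values were seen.

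**Figure D3:**
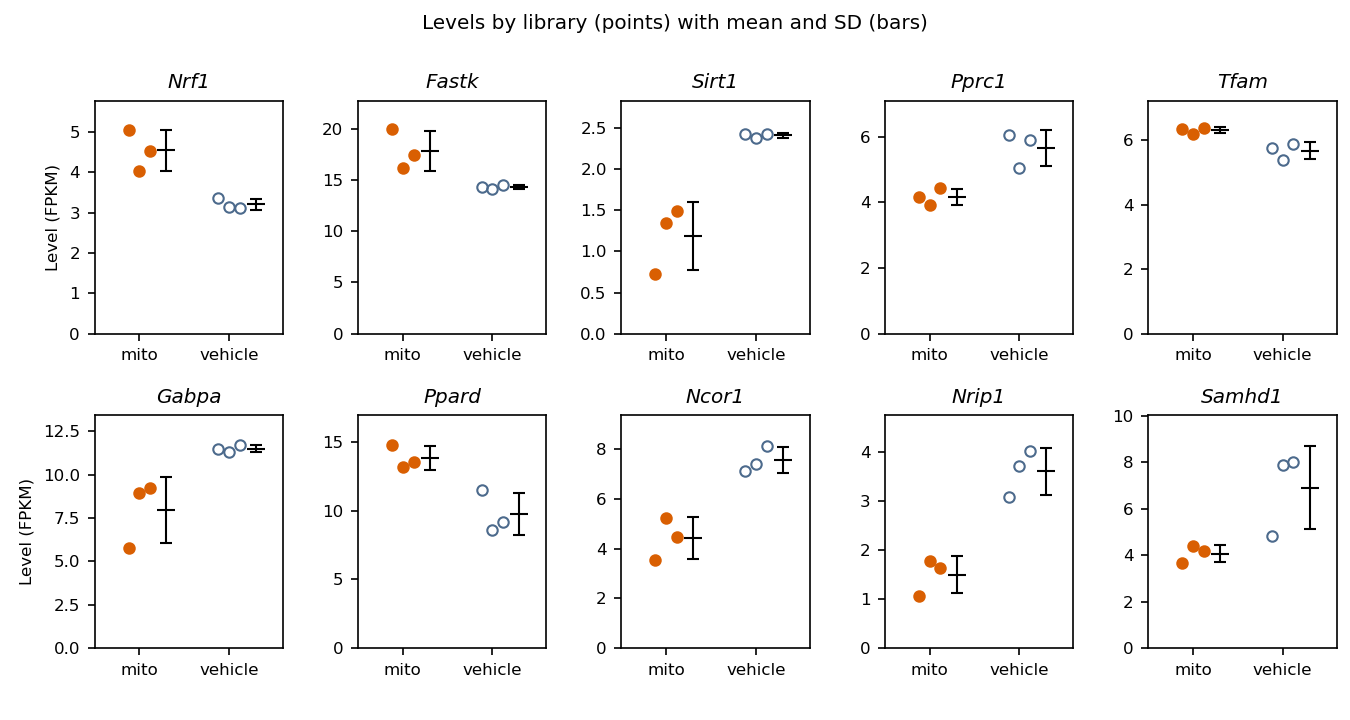
Level (FPKM) in each library of 10 genes, points for libraries and bars for mean and SD of 3, mitochondria at the left of each panel. The 10 genes were picked with results of these data known, and their groups do not overlap in any panel. In CPM, groups did not overlap for 40.7% of all genes tested. Nrf1 and Fastk lie higher and Sirt1 and Nrip1 lower with mitochondria, and Pprc1, Tfam and Gabpa did not pass the test.

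A further 56 genes of the same pathways were listed, and 54 of them had counts enough for the test. Of these 54, 3 rose and 3 fell (11.1%, against 14.8% of all genes), with a median log2 fold change of -0.01. The clearest was Nrip1 (RIP140), a corepressor of nuclear receptors known to hold down oxidative genes, at 1.07, 1.79 and 1.63 FPKM with mitochondria and 3.08, 3.72 and 4.04 FPKM with vehicle. Its log2 difference was -1.20 ± 0.19 (edgeR adjusted p = 0.0083), and -1.07 with GC offsets (adjusted p = 0.0021). It passed with any single library left out, at adjusted p of 0.0028 to 0.046. Ncor1, another corepressor of nuclear receptors, measured 3.53, 5.23 and 4.48 FPKM with mitochondria and 7.11, 7.4 and 8.13 FPKM with vehicle (-0.70 ± 0.14, adjusted p = 0.017). Ppard, the nuclear receptor PPARδ, rose: it measured 14.8, 13.2 and 13.5 FPKM with mitochondria and 11.5, 8.59 and 9.17 FPKM with vehicle (0.57 ± 0.13, adjusted p = 0.022). Ncor1 and Ppard were no longer called without mitochondria replicate 3, vehicle replicate 2 or vehicle replicate 3, with adjusted p of up to 0.08 and 0.11.

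Samhd1, which breaks down deoxynucleotides, fell: it measured 3.65, 4.38 and 4.18 FPKM with mitochondria and 4.84, 7.88 and 8.01 FPKM with vehicle. The log2 difference was -0.69 ± 0.18 (edgeR adjusted p = 0.037), and of the 6 fits without a library it passed in 1, without vehicle replicate 1. Mrm1, a methyltransferase of mitochondrial ribosomal RNA, and Trmu, which adds sulphur to mitochondrial tRNAs, rose by 0.63 ± 0.17 and 0.51 ± 0.14 on the log2 scale (adjusted p = 0.043 and 0.039). Mrm1 measured 8.14, 5.79 and 6.35 FPKM with mitochondria and 5.27, 3.92 and 4.56 FPKM with vehicle. Trmu measured 3.09, 2.75 and 3.09 FPKM with mitochondria and 2.37, 2.18 and 2.03 FPKM with vehicle. The call of Trmu was lost whichever library was left out (adjusted p of 0.052 to 0.17), and that of Mrm1 without mitochondria replicate 1 or 3 or vehicle replicate 2 or 3 (up to 0.17). With GC offsets, Trmu was at 0.38 (adjusted p = 0.058) and the other 5 still passed. Twnk, the mtDNA helicase, differed by 0.16 ± 0.13, and Yy1 and Nfe2l2, regulators of respiratory and antioxidant genes, by -0.05 ± 0.11 and -0.10 ± 0.11. The AMPK subunit Prkaa2, an energy sensor upstream of PGC-1α, differed by -0.79 ± 0.24 (adjusted p = 0.061). It was at 0.308, 0.55 and 0.468 FPKM with mitochondria and 0.683, 0.907 and 0.816 FPKM with vehicle. GC offsets left Prkaa2, at 40.7% GC, at -0.20, where edgeR gave an adjusted p of 0.45. The AMPK subunit Prkaa1 was more abundant, at a mean of 10.6 FPKM against 0.622 for Prkaa2. Its estimate was -0.43 ± 0.17 in the main fit and 0.23 once GC offsets were applied. Twnk, Yy1, Nfe2l2, Prkaa2 and Prkaa1 did not pass and were chosen for mention after their values were seen.

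Of the 13 mtDNA-encoded protein genes 12 fell (92.3%, against 8.46% of all genes; edgeR, median log2 fold change -1.33), and 7 did without mitochondria replicate 3, vehicle replicate 2 or vehicle replicate 3. Their GC content is 31.9 to 41.1%, and with GC offsets 4 were lower and 2 higher (against 9.49% and 9.93% of all genes), with a median of -0.17.

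Across the 37 genes the log2 fold change followed GC content. Spearman's rho between them was 0.72 over these 37 genes and 0.40 over all genes tested, and -0.01 in each with GC offsets, which remove from each library its smooth trend of log2 CPM with GC content. The genes share the same 6 libraries, so these values describe the libraries. The 17 members with under 45% GC had a median log2 fold change of -0.18, with 14 of the 17 below 0, beside -0.41 for the 3857 such genes in all. With offsets these medians were 0.17 and 0.03. The 15 members with 50% or more GC had a median of 0.20, with 13 of 15 above 0, beside 0.14 for all 8670 such genes, and with offsets 0.06 and 0.01.

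**Figure D4:**
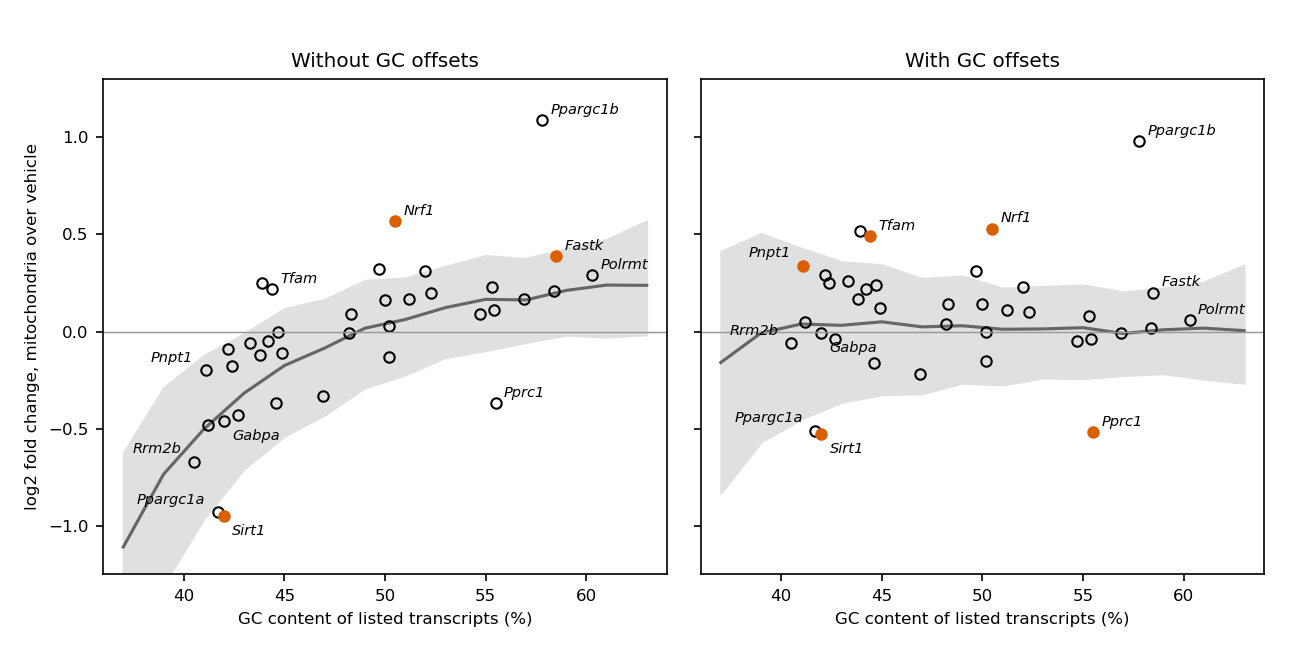
Log2 fold change, mitochondria over vehicle, against GC content of the listed transcripts (%), without GC offsets (left) and with them (right). Circles are the 37 genes, orange where the adjusted p was under 0.05 in that fit; the grey line and band are the median and quartiles of all genes tested in bins of GC content, and both line and circles slope on the left and lie flat on the right.

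The slope was steepest in mitochondria replicate 1. Relative to the vehicle mean, the median log2 CPM of the 17 members with under 45% GC was -0.68 in mitochondria replicate 1, -0.10 and 0.03 in replicates 2 and 3, and -0.09 to 0.03 in the vehicle libraries. For the 15 members with 50% or more GC it was 0.31 in mitochondria replicate 1, 0.12 and 0.17 in replicates 2 and 3, and -0.03 to 0.05 in the vehicle libraries. Over all 3857 tested genes with under 45% GC the median was -0.81, -0.19 and -0.28 in mitochondria replicates 1 to 3. It was -0.02 to 0.02 in the vehicle libraries. All 3 mitochondria libraries thus carried the trend, and the offsets can remove part of a group difference with it. The cause of the trend was not tested. Mitochondria replicate 1 was the lowest of the 6 for 17 members and the highest for 14 (83.8% in all, against 59.5% of all genes tested). Without it Nrf1 and Fastk still passed as higher, Sirt1 passed as lower with Gabpa, and the median of the set was 0.06.

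**Figure D5:**
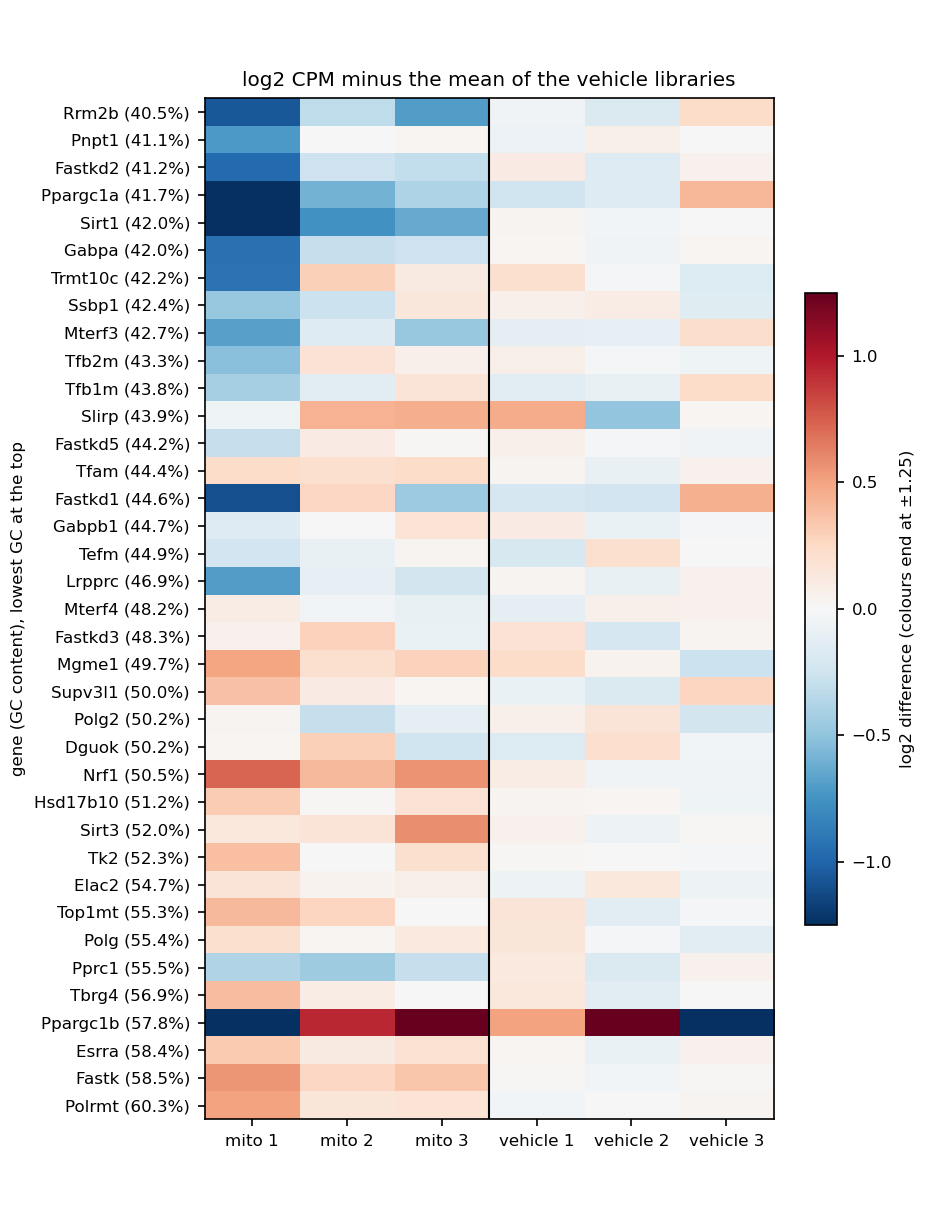
Log2 CPM of the 37 genes minus their mean over the vehicle libraries, in the 3 mitochondria libraries (left) and the 3 vehicle libraries (right), ordered by GC content with the lowest at the top. Mitochondria replicate 1 is blue over most genes of low GC content and red over most of high GC content. Nrf1 is red and Sirt1 and Pprc1 are blue in all 3 mitochondria libraries. Other genes also keep 1 colour there, such as Tfam and Fastk (red) and Rrm2b and Gabpa (blue).

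With GC offsets 3 members were higher (Nrf1, Tfam and Pnpt1) and 2 lower (Sirt1 and Pprc1), or 13.5% of the set, against 19.4% of all genes (9.93% higher and 9.49% lower). Tfam was then at 0.49 (edgeR adjusted p = 0.022), and it passed in 2 of the 18 alternatives, both with GC offsets. The median of the 37 genes was 0.10, against 0.02 for all genes. Nrf1 and Sirt1 were the members called in the same direction in both fits. With GC offsets and the replicate number as a block Sirt1 was at -0.54 and no longer passed (adjusted p = 0.054). In log2 CPM relative to the vehicle mean, without GC offsets, Nrf1 was at 0.726, 0.41 and 0.558 in the mitochondria libraries. Sirt1 was at -1.662, -0.752 and -0.63. The same sign in all 3 mitochondria libraries was not particular to these genes. It was also seen in Tfam, Polrmt and Fastk (above 0) and in Mterf3, Rrm2b and Gabpa (below 0), among others.

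Some levels are uncertain because members share sequence or position with other genes. Fastkd5 shares 65.2% of its exonic bases with Ubox5 on the same strand, and Ubox5 was not called (0.06 ± 0.15). Mterf4 lies opposite Sned1 over 35.2% of its exonic bases, and Sned1 fell (-2.11 ± 0.24, edgeR adjusted p = 0.0038), while Mterf4 did not pass. Tfb2m shares 31.9% of its stretches of 50 bases with Gm1818 (-0.16 ± 0.24, not called). Sirt3 lies opposite Ric8a and Psmd13 over 12.7% of its exonic bases, and Ric8a rose (0.37 ± 0.10, adjusted p = 0.034). No other gene overlaps an exon of Nrf1 or shares its stretches of 50 bases, and for Sirt1 these shares are 1.2% and 1.0%.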

How the data were processed

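Poly(A) RNA of 6 libraries in 2 groups of 3 was analysed. The authors deposited 1 table. Its FPKM values were normalised by the authors for length and depth. Its estimated counts (expected counts) were deposited by the authors as whole numbers, not normalised. Low counts pile up at 4 (2.31 to 2.84 times the neighbouring values), so a fragment is taken to be worth about 4 counts. StringTie 1.3.0, HISAT2 2.0, Bowtie 0.12.2 and the build mm8 are named, per the submitters' processing notes, without their roles. Of 28732 gene identifiers found in GENCODE M21, 90.2% had the same start and end there, so coordinates are 1-based GRCm38. Fastk is among those that differ, and shares of exonic bases were taken from GENCODE M21.

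Counts were fitted in R 4.3.3 with edgeR 4.0.16 (TMM, filterByExpr with a minimum count of 10, glmQLFit and glmQLFTest with group as the only term, two-sided, Benjamini-Hochberg over 17290 genes, threshold 0.05). Each SE was derived from the test by dividing the size of the log2 fold change by the root of F, with the 95% interval from its t distribution. GC offsets are lowess trends per library (span 0.3), entered as fixed values, so p-values with them leave out the error of the trends. The 18 alternatives used limma 3.58.1, DESeq2 1.42.0 and other scalings, filters and samples. The labels do not say that replicate numbers pair the libraries, so no block was used. After removal of group means, libraries of the same number correlated at 0.0371, 0.00907 and -0.0152. Those of different numbers correlated at -0.0314 to 0.0257. With 3 libraries per group, these values cannot show whether libraries of the same number were prepared together.

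The genes and lists were chosen with earlier results of these data known. Values in every library are given for genes past the threshold, for Tfam, Polrmt, Polg, Tfb2m, Ppargc1a, Nrf1, Gabpa, Esrra and Lrpprc, and for the most and least abundant gene of each role. Counts are not independent molecules, so precision covers the spread between libraries only. Of the marker lists, macrophage genes summed to 22 to 29.6 FPKM with mitochondria and 27.6 to 37.1 with vehicle. That sum was mostly Lyz2, and none of the 6 macrophage genes was called. Log2 estimates were -0.41, -0.29 and -1.73 for Lyz2, Csf1r and Ptprc, and 0.95, 0.54 and 1.00 for Adgre1, Cd68 and Itgam. Synovial fibroblast genes (Pdpn included, 3 of 5 lower) summed to 191 to 204 FPKM with mitochondria and 197 to 223 with vehicle. In the same order, endothelial genes summed to 0.369 to 0.715 and 0.37 to 0.57, and muscle genes to 2.58 to 4.3 and 3.55 to 5.64. The osteocyte marker Mepe was not analysed here.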

Additional observations from a re-analysis of the deposited data

How the results depend on the processing

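The 3 calls rest on few libraries, and in edgeR those of Fastk and Sirt1 also rest on the filter. Leaving out 1 library at a time gave 0 to 2 members higher, 0 to 2 lower and a median of -0.08 to 0.06, against 2, 1 and 0.00 in the fit reported. Over all genes it gave 130 to 1086 higher and 310 to 1694 lower calls (reported: 1099 and 1463), among other pathway genes 0 to 2 higher and 1 to 4 lower (3 and 3), and among mtDNA-encoded genes 7 to 12 lower (12). The fewest calls came without mitochondria replicate 3 (398 higher and 734 lower), vehicle replicate 2 (130 and 316) or vehicle replicate 3 (132 and 310). Depth limits Ppargc1a and Ppargc1b, which had at most 24.2 fragments in any library. The cause of the changes under the other settings was not tested.

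With no filter on low counts, which tests more genes, edgeR called 357 genes higher and 507 lower, 1 member higher (Nrf1) and 0 lower, 0 other pathway genes higher and 1 lower, and 7 mtDNA-encoded genes lower. Limma on log2(FPKM + 1) with no filter called 161 genes higher and 301 lower, 0 members in either direction, 0 other pathway genes in either direction and 4 mtDNA-encoded genes lower, with a member median of -0.05. With a mean of at least 0.5 FPKM, limma gave 1 member higher and 2 lower at a pseudocount of 1 (median -0.05) and the same numbers at 0.1 (median -0.07). On quantile-normalised values 6 other pathway genes were higher and the member median was 0.07. DESeq2 called 1687 genes higher and 4 members lower, counts divided by 4 gave 3 members lower, and upper-quartile scaling a member median of 0.06. GC offsets gave 1717 genes and 6 other pathway genes higher, 2 members lower, 2 mtDNA-encoded genes higher and 4 lower, and a member median of 0.10.

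In the labels, libraries of the 2 groups are linked only by a replicate number. With the replicate block 1 member was higher, the adjusted p of Fastk being 0.056, and 898 genes were higher and 1386 lower. With GC offsets and the replicate block Fastk and Sirt1 were not called, 5 other pathway genes were higher, 2 mtDNA-encoded genes were higher and 4 lower, and the member median was 0.08.

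Of the 37 members, 17 took the other sign in at least 1 setting, none of them among the 3 calls. With GC offsets the log2 change was 0.17 for Tfb1m, 0.26 for Tfb2m, 0.12 for Tefm, 0.04 for Mterf4, -0.04 for Polg, 0.25 for Ssbp1, 0.29 for Trmt10c, -0.05 for Elac2, 0.05 for Fastkd2, 0.22 for Fastkd5, -0.01 for Tbrg4 and 0.34 for Pnpt1. With GC offsets and the replicate block it was 0.17 for Tfb1m, 0.26 for Tfb2m, 0.13 for Tefm, 0.04 for Mterf4, -0.03 for Polg, 0.24 for Ssbp1, 0.00 for Dguok, 0.28 for Trmt10c, -0.05 for Elac2, 0.05 for Fastkd2, 0.22 for Fastkd5, -0.01 for Tbrg4 and 0.34 for Pnpt1. On quantile-normalised values it was 0.02 for Tfb1m, 0.07 for Mterf4, 0.05 for Polg2 and 0.04 for Fastkd5, and with upper-quartile scaling 0.05 for Mterf4 and 0.01 for Fastkd5. Limma gave -0.03 for Dguok and -0.05 for Gabpb1 at a pseudocount of 1, with or without the filter, and -0.04 and -0.07 at 0.1. Over the fits without 1 library the change ran from -0.29 to 0.01 for Tfb1m, -0.20 to 0.12 for Tfb2m, -0.07 to 0.03 for Mterf4, -0.12 to 0.16 for Dguok, -0.33 to 0.20 for Trmt10c, -0.02 to 0.18 for Fastkd3, -0.13 to 0.06 for Fastkd5, -0.32 to 0.01 for Pnpt1, -0.44 to 2.04 for Ppargc1b and -0.08 to 0.08 for Gabpb1. For these members no direction can be read.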
